A study of Mus musculus with 14 samples.

Results

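The 10 transcription factors followed here act in mouse zygotic genome activation and were measured in RNA from single cloned embryos: the homeobox genes Obox1, Obox2, Obox3, Obox5 and Obox6, the nuclear receptor gene Nr5a2, the AP-2 gene Tfap2c, the co-activator gene Yap1, its partner gene Tead4, and Nfya. They were taken by name, as 10 of 20242 gene symbols, and they held 14 of 25650 RefSeq transcript entries. The 14 embryos were B6D2F1 embryos at the two-cell stage, made by somatic cell nuclear transfer (SCNT) with cumulus cells as donors, and each library came from 1 embryo. All groups shared activation in SrCl2 and EGTA with cytochalasin B, culture in mKSOM with deionized BSA, and collection at 28 h. There were 3 control embryos without added drug, 1 VC(0-8h) embryo and 2 VC(8-15h) embryos given vitamin C (VC) at 10 µg/ml, 3 TSA(0-8h) embryos given trichostatin A (TSA) at 50 nM, and 2 TSA(0-8h)+VC(0-8h) and 3 TSA(0-8h)+VC(8-15h) embryos given both. The hours count from the start of activation. TSA inhibits histone deacetylases, and VC is a cofactor of histone and DNA demethylating dioxygenases.

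Zygotic genome activation is the step at which the embryo begins to transcribe its own genes, and in the mouse its main wave falls at the two-cell stage. OBOX proteins are homeodomain factors encoded by a gene cluster: Obox1, Obox2 and Obox5 are known as maternal members and Obox3 as a zygotic member. NR5A2 binds early embryo enhancers, NFYA is the DNA-contacting subunit of the CCAAT-binding factor NF-Y, YAP1 co-activates TEAD factors, and TEAD4 and TFAP2C are known for their roles in the trophectoderm lineage.

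The 5 Obox genes lie together on chromosome 7 of mm9. Obox2 spans chr7:15939386-15983894 and Obox1 chr7:16097689-16142215, both on the + strand, and Obox5 spans chr7:16335483-16345149 on the + strand. Obox3 spans chr7:16065174-16225251 and Obox6 chr7:16418595-16425027, both on the - strand. The span of Obox3 encloses that of Obox1, and no exonic base is shared between them. The coding stretch over the DNA-binding helix of the homeodomain is shown because it encodes the part that contacts DNA; the capitals mark the conserved core of that helix, and the 60 bases come from the annotated mm9 transcripts.
Obox1: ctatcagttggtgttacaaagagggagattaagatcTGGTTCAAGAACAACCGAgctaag
Obox2: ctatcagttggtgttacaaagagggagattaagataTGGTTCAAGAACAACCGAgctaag
Obox3: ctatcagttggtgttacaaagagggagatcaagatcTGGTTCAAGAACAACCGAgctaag
Obox5: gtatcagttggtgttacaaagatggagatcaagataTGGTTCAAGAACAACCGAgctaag
Obox6: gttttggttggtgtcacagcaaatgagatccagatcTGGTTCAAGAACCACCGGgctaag

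Over these 60 bases Obox1 and Obox2 shared 98.3%, Obox1 and Obox3 98.3%, Obox1 and Obox5 93.3%, and Obox1 and Obox6 76.7%. Likeness to other genes and repeated matches in the genome both limit what 50-base reads can assign. Of the 50-base windows of each annotated transcript, 0% of Obox2, 32.4% of Obox1, 37.5% of Obox3 and 59.3% of Obox5 matched the mm9 genome at 1 place, against 91.3% of Obox6. The other genes with a position were mostly unique, at 90.9% for Yap1, 88.3% for Nfya, 87.3% for Nr5a2 and 83.3% for Tead4. Obox1 shared 848 of its 1415 windows with Obox2. Obox3 differed in kind: 1.93% of its windows were shared with an annotated coding transcript of another gene. Yet 50.6% of them matched several places in the genome, up to 205. How reads with several matches were counted is not given in the sources used here, so the levels of Obox1, Obox2 and Obox3, and in part Obox5, are uncertain in how they were split between copies.

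**Figure D1:**
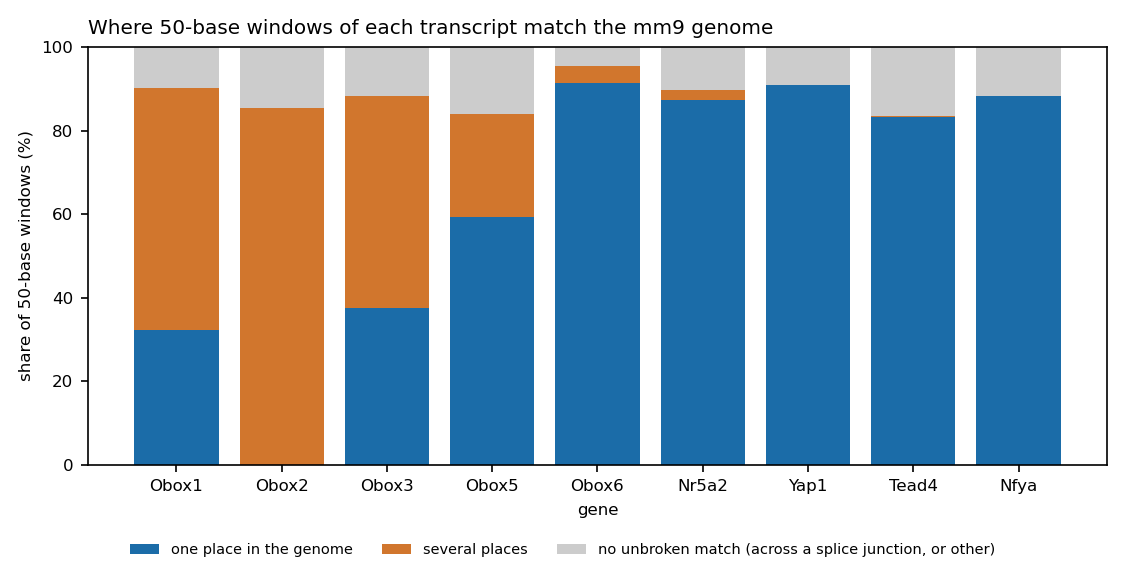
Share of 50-base windows (%) of 1 annotated transcript per gene that match the mm9 genome at 1 place, at several places or nowhere without a break. Obox2 had no window at 1 place, and Obox6, Yap1 and Nfya had 91.3%, 90.9% and 88.3%.

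The stretches upstream of Obox1, Obox3 and Obox5 are shown because they share sequence there, and because Obox3 and Obox5 are the members with the highest median levels in the family. Each is the 250 bases before the RefSeq start site on GRCm38.p6, with the longest run common to the 3 genes in capitals: Obox1 at chr7:15547007-15547256 (+), Obox3 at chr7:15639778-15640027 (-) and Obox5 at chr7:15750120-15750369 (+).
Obox1: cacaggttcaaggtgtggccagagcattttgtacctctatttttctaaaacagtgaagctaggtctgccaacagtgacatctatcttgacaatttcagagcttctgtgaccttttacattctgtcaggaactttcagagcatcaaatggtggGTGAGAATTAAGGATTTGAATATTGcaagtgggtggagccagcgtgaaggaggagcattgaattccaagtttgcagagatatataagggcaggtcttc
Obox3: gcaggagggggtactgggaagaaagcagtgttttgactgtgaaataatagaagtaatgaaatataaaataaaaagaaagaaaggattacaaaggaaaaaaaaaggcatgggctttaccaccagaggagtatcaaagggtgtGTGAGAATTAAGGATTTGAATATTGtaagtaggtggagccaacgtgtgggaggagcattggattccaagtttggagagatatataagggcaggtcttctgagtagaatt
Obox5: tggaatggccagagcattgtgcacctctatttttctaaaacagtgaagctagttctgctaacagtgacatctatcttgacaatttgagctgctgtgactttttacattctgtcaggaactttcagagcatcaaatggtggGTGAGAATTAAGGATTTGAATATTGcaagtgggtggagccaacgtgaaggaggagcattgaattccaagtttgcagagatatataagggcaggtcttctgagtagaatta

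Set on the shared run, Obox1 and Obox5 were alike at 74.8% of 238 bases, Obox3 and Obox5 at 60.6% of 249, and Obox1 and Obox3 at 56.5% of 239. The letters TAATCC, a paired-like homeodomain motif, occurred on either strand in the Obox3 stretch and in neither of the other two, and in 6.25% of 32851 RefSeq promoters of the same length. AAGGTCA, a motif of NR5A receptors, occurred upstream of Obox1 and Obox2, and in 4.08% of the promoters. CCAAT, the NF-Y motif, occurred upstream of Obox2, Obox3, 1 start site of Nr5a2 and 1 of Nfya, and in 33.8%. The Nfya start site also held TAATCC. The table of promoters held 7 of the 10 genes.

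The levels were RPKM, reads on the exons of an entry scaled to its length and to the reads counted in the library. The reads counted ranged from 3021540 to 13589389 per embryo, and 3 reads on a 1 kb transcript were worth 0.993 RPKM in the shallowest library and 0.221 in the deepest, which covers counting error only. Between 3322 and 6728 entries reached 1 RPKM. Genes used by every cell were also very low in some libraries (Actb was listed at 0 in 1 embryo and Ppia in 1), so a 0 below is given as listed and not as absence. Of 13 two-cell genes, Zfp352 and Tcstv1 reached 1 RPKM in 13 of 14 embryos, the most of the list. At the other end, Zscan4c, Zscan4f and Usp17la reached it in 3 embryos each and Zscan4d in 4. The 13 together summed to between 8.30 RPKM in control replicate 2 and 1243 in VC(8-15h) replicate 2. The oocyte genes Bmp15, Oog1 and Oosp1 reached 1 RPKM in all 14 embryos, but Zar1 did so in 2, Ooep in 3, and Mos and Zp2 in 7. The 14 oocyte genes summed to 401 to 1991 RPKM, again lowest in control replicate 2. Of 13 cumulus cell genes, Inhba and Krt8 were at 0 in every embryo, Has2 and Star reached 1 RPKM in 1 embryo each, and Amhr2 reached it in 7, with 144 RPKM in TSA(0-8h) replicate 3. The cumulus sum was 0.111 to 18.4 RPKM in control, 47.3 in the VC(0-8h) embryo and 0.0759 to 1.55 in VC(8-15h) embryos. It was 0.144 to 144 in TSA(0-8h), 0.315 to 10.9 in TSA(0-8h)+VC(0-8h) and 2.16 to 63.6 in TSA(0-8h)+VC(8-15h) embryos. Amhr2 made up nearly all of the largest sums, with 46.9 RPKM in the VC(0-8h) embryo and 63.4 in TSA(0-8h)+VC(8-15h) replicate 2. In these whole embryos, fewer copies in each cell and fewer cells with a transcript cannot be told apart.

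The levels of most of the 10 genes were spread widely from embryo to embryo, also within a treatment. Between 2 and 9 of the genes reached 10 RPKM in an embryo, the fewest in control replicate 2 and the most in TSA(0-8h)+VC(8-15h) replicate 3. Obox3 and Tfap2c had no embryo between 1 and 10 RPKM, while Obox6 had 9 there, Nr5a2 6 and Obox5 5. Yap1 was at or above 84.6 RPKM in all 14 embryos, and Nr5a2 was at or above 1.09 RPKM. The SD of log2(RPKM+1) over the 14 embryos was 0.74 for Yap1 and 2.97 for Obox5, against a median of 2.26 over 4616 entries with 1 RPKM in at least 7 embryos. Of those entries, 1.73% had a smaller SD than Yap1, 92.3% than Obox5, 85.3% than Obox3, 85.2% than Obox1 and 61.0% than Obox6. For Nr5a2, Nfya, Obox2, Tead4 and Tfap2c the share lay between 12.8% (Tfap2c) and 37.6% (Nr5a2), so Nr5a2 and Nfya varied less than most of those entries. For Tfap2c, Tead4 and Obox2 the small SD does not show a steady level. They lay under 1 RPKM in 12, 11 and 8 embryos, where this scale compresses differences, and reached 32.4, 53.5 and 54.4 RPKM. Neither they nor Obox1 belonged to the entries they were set against.

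**Figure D2:**
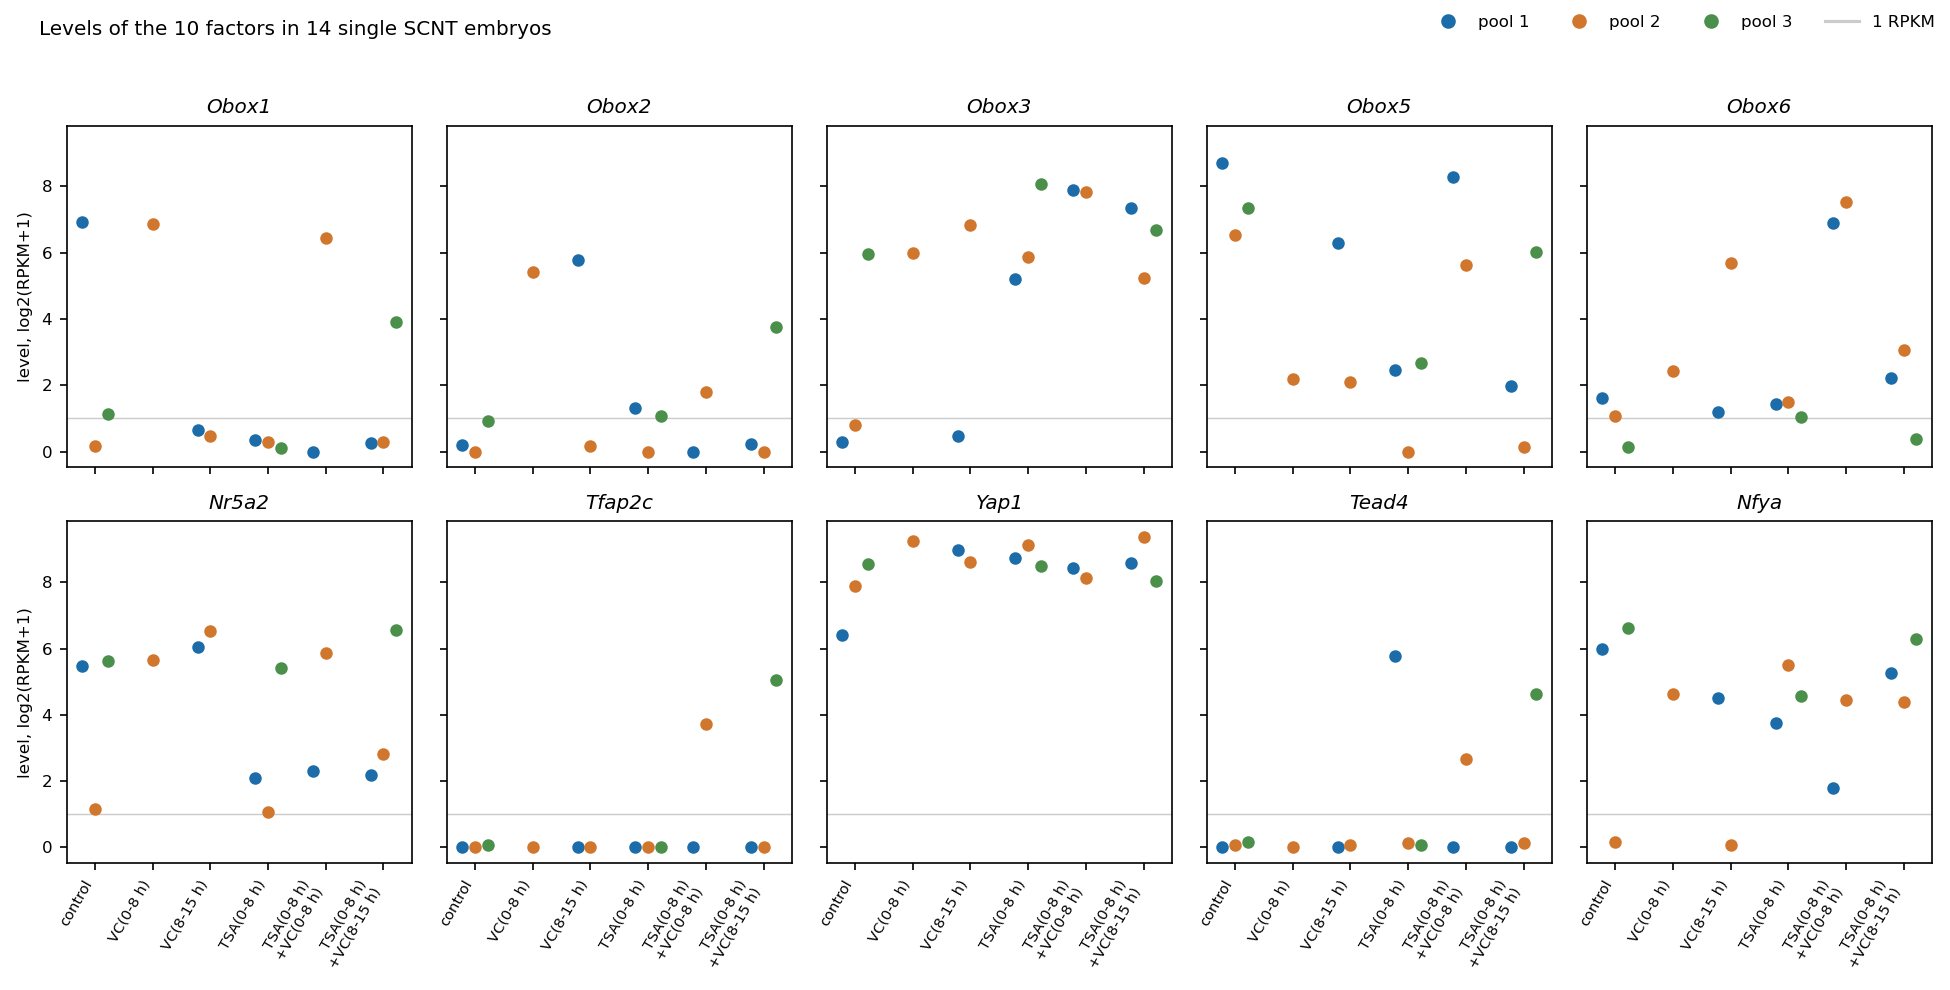
Level of each factor in log2(RPKM+1), 1 point per embryo, by treatment and coloured by sequencing pool, with a grey line at 1 RPKM. Obox3 lay above 36 RPKM in all 8 embryos given TSA, Obox5 above 91 RPKM in all 3 controls, and Yap1 above 84 RPKM in every embryo.

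Obox5, a maternal member of the family, was the most abundant Obox entry in control embryos, at 419, 91.7 and 161 RPKM in replicates 1 to 3. In TSA(0-8h) embryos it was at 4.54, 0 and 5.38 RPKM, and in TSA(0-8h)+VC(8-15h) embryos at 2.98, 0.0981 and 63.8 RPKM. The control embryos were all above both of these groups, and the closest values were 91.7 RPKM in control replicate 2 and 63.8 RPKM in TSA(0-8h)+VC(8-15h) replicate 3. With VC alone, Obox5 was at 3.58 RPKM in the VC(0-8h) embryo and at 77.0 and 3.25 RPKM in VC(8-15h) embryos. With TSA and VC together from 0 to 8 h it was at 312 and 48.2 RPKM, 1 inside and 1 below the range of the controls, both above all 3 TSA(0-8h) embryos. The order of the group medians was therefore TSA(0-8h)+VC(8-15h), VC(0-8h), TSA(0-8h), VC(8-15h), control and TSA(0-8h)+VC(0-8h), and neighbours in this order overlapped except that the 2 VC(8-15h) embryos were both below the controls.

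In the comparison of TSA(0-8h)+VC(8-15h) with control embryos, Obox5 differed by -4.81 on the log2(RPKM+1) scale (SE 1.54, limma adjusted p = 0.110), and within the 3 sequencing pools by -6.72, -6.40 and -1.32. The difference of TSA(0-8h) from control embryos was -5.82 (SE 1.87, limma adjusted p = 0.134), and -6.24, -6.53 and -4.67 within the pools. In VC(8-15h) against control embryos it was -3.34 (SE 1.54, limma adjusted p = 0.309), and -2.43 and -4.45 within the pools. It was -5.44 without VC(8-15h) replicate 1 and -1.24 without VC(8-15h) replicate 2. TSA(0-8h)+VC(0-8h) exceeded TSA(0-8h) embryos by 5.24 (SE 2.12, limma adjusted p = 0.202), and by 5.82 and 5.62 within the pools. None of the 4 passed the threshold of 0.05, although in all 4 the groups did not overlap. Lower values without overlap were found for 5.71%, 11.8% and 11.3% of all entries in the first 3 comparisons, and higher ones for 27.2% in the fourth. These comparisons share the control or the TSA(0-8h) embryos. The first 2 calls depended on the fit: on reads recovered from the RPKM steps, limma-voom gave -5.93 (adjusted p = 0.0420) and -7.17 (adjusted p = 0.0172), and it passed 7% and 4.71% of all entries there. When entries had to reach 5 RPKM, the second had a limma adjusted p of 0.0466, and 7.6% of all entries passed.

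Obox3, the zygotic member, showed the other arrangement. It was at 0.230, 0.727 and 61.4 RPKM in control embryos, at 62.8 in the VC(0-8h) embryo and at 0.380 and 114 RPKM in VC(8-15h) embryos. It was at 36.3, 57.9 and 268 RPKM in TSA(0-8h), 235 and 225 in TSA(0-8h)+VC(0-8h), and 163, 36.4 and 102 RPKM in TSA(0-8h)+VC(8-15h) embryos. All 8 embryos given TSA had at least 36.3 RPKM, from 176 reads in the shallowest library, while 3 of the 6 without TSA were below 1 RPKM, with 2, 8 and 6 reads. The other 3 without TSA lay inside the range of the TSA embryos, so the groups overlapped. Group medians ran from control, through VC(8-15h), TSA(0-8h), VC(0-8h) and TSA(0-8h)+VC(8-15h), to TSA(0-8h)+VC(0-8h), and only the last stood clear of its neighbour in this order.

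Across the 14 embryos, Obox3 was higher by 3.22 on the log2 scale with TSA than without (SE 1.08, limma adjusted p = 0.609), and the difference was 6.44, 1.76 and 1.41 within the pools. Higher values at an unadjusted p under 0.05 were found for 2.99% of all entries in this comparison. For TSA(0-8h)+VC(8-15h) against control it was 4.07 (SE 1.76, limma adjusted p = 0.214), with 7.06, 4.44 and 0.72 within the pools. For TSA(0-8h) against control it was 4.04 (SE 2.05, limma adjusted p = 0.356), with 4.92, 5.09 and 2.11 within the pools. In both comparisons with control, Obox3 passed the filter on low values only through the embryos given TSA. Control replicates 1 and 2 were below 1 RPKM, so these differences and p-values are partly set by that filter. TSA(0-8h)+VC(8-15h) and TSA(0-8h) embryos differed by 0.03 (SE 1.16, limma adjusted p = 0.991), and this value changed sign under quantile and median-ratio scaling.

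Obox6, the member most diverged in the stretch shown above, was low in most embryos. It was at 2.07, 1.09 and 0.110 RPKM in control embryos and at 1.73, 1.82 and 1.08 RPKM in TSA(0-8h) embryos. It was at 119 and 183 RPKM in TSA(0-8h)+VC(0-8h) embryos, from 517 and 3205 reads. These 2 embryos were the highest of all 14, and the next was VC(8-15h) replicate 2 at 50.4 RPKM. The remaining embryos were at 4.39 in VC(0-8h), 1.29 in VC(8-15h) replicate 1 and 3.62, 7.32 and 0.305 RPKM in TSA(0-8h)+VC(8-15h). TSA(0-8h)+VC(0-8h) exceeded TSA(0-8h) embryos by 5.88 on the log2 scale (SE 1.96, limma adjusted p = 0.113), and by 5.45 and 6.03 within the pools. In the same comparison 4.76% of all entries passed the threshold. With and without VC over all 14 embryos, Obox6 differed by 2.45 (SE 1.32, limma adjusted p = 0.555).

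Obox1 and Obox2, whose sequences are the most alike, each appeared in few embryos. Obox1 was at 122 RPKM in control replicate 1, 116 in the VC(0-8h) embryo, 85.2 in TSA(0-8h)+VC(0-8h) replicate 2 and 14.2 in TSA(0-8h)+VC(8-15h) replicate 3, from 802, 602, 1359 and 212 reads. The other 10 embryos had 0 to 1.21 RPKM, from 0 to 20 reads. Obox2 was at 42.1 RPKM in the VC(0-8h) embryo, 54.4 in VC(8-15h) replicate 1 and 12.6 in TSA(0-8h)+VC(8-15h) replicate 3. The other 11 embryos had 0 to 2.47 RPKM. Obox1 and Obox2 were both above 10 RPKM in 2 embryos, and in control replicate 1 and VC(8-15h) replicate 1 one was high and the other below 1 RPKM. Neither gene reached 1 RPKM in every embryo of a group of 2 or more, so neither entered the comparisons between pairs of treatments.

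The 5 Obox entries together summed to between 44.0 and 666 RPKM per embryo, and which of them made up most of the sum differed between embryos. Obox5 made up 77.2%, 97.9% and 71.7% of the sum in the 3 control embryos. Obox3 was the largest part in 7 of the 8 embryos given TSA, with 81.9%, 96.6% and 97.2% in TSA(0-8h) and 95.9%, 82.7% and 52.8% in TSA(0-8h)+VC(8-15h) embryos. The exception was TSA(0-8h)+VC(0-8h) replicate 1, in which Obox5 held 46.9%. Both TSA(0-8h)+VC(0-8h) embryos, at 666 and 544 RPKM, had the highest sums, and the next was control replicate 1 at 543 RPKM. These shares are within an embryo and do not depend on its depth, but they rest on how the reads were split between copies.

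**Figure D3:**
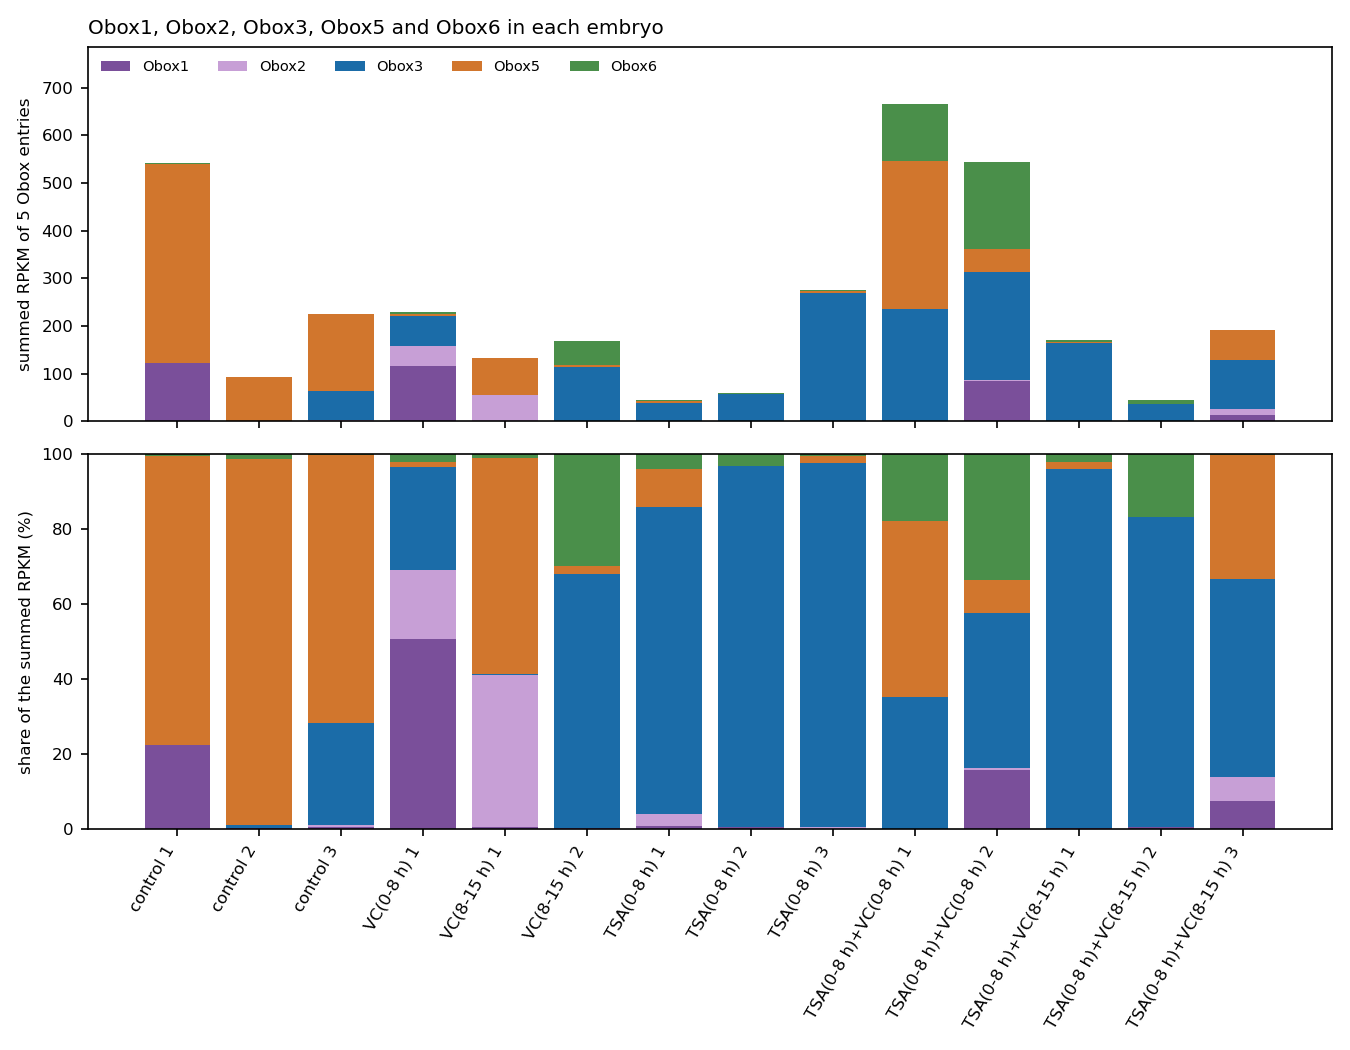
Summed RPKM of the 5 Obox entries in each embryo (top) and the share of each entry in that sum in percent (bottom). Obox5 is the largest part in the 3 control embryos (71.7% to 97.9%) and Obox3 in all 3 TSA(0-8h) embryos (81.9% to 97.2%).

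Nr5a2, on the - strand at chr1:138740161-138857004 of mm9, was read almost wholly from the entry NM_001159769. It was at 43.8, 1.24 and 48.3 RPKM in control embryos, 49.0 in the VC(0-8h) embryo and 64.9 and 92.0 RPKM in VC(8-15h) embryos. In embryos given TSA it was at 3.28, 1.09 and 41.3 RPKM in TSA(0-8h), 3.96 and 57.8 in TSA(0-8h)+VC(0-8h), and 3.55, 6.05 and 92.9 RPKM in TSA(0-8h)+VC(8-15h). Without TSA, 5 of 6 embryos were at or above 43.8 RPKM, and the sixth, control replicate 2, was the embryo with the lowest two-cell and oocyte sums. With TSA, 3 of 8 embryos were at or above 41.3 RPKM and the other 5 had at most 6.05. The difference between embryos with and without TSA was -1.73 on the log2 scale (SE 1.22, limma adjusted p = 0.960), and it was -3.57, -1.20 and 0.35 within the pools. VC(8-15h) embryos were both above the 3 controls, by 2.20 on average (SE 2.03, limma adjusted p = 0.660). Without control replicate 2 that difference was 0.74. Higher values without overlap were found for 17.6% of all entries in that comparison. The second entry, NM_030676, was at 0.331 RPKM in control replicate 3 and 0 elsewhere.

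Nfya, on the - strand at chr17:48526210-48549231, was at 62.5, 0.121 and 96.8 RPKM in control embryos, 23.5 in the VC(0-8h) embryo and 21.9 and 0.0420 RPKM in VC(8-15h) embryos. It was at 12.5, 44.2 and 22.6 RPKM in TSA(0-8h), 2.45 and 21.0 in TSA(0-8h)+VC(0-8h), and 37.5, 19.9 and 77.4 RPKM in TSA(0-8h)+VC(8-15h) embryos. The lowest embryo given TSA was TSA(0-8h)+VC(0-8h) replicate 1, with 29 reads. Control replicate 2 and VC(8-15h) replicate 2 had 3 reads and 1 read, while control replicate 3 was the highest of all 14. With TSA against without, Nfya differed by 0.92 on the log2 scale (SE 1.25, limma adjusted p = 0.994), and by -1.65, 3.17 and -1.19 within the pools. The groups overlapped in every comparison tested. The difference of TSA(0-8h)+VC(8-15h) from control was 1.06 on the log2 scale (SE 1.71, limma adjusted p = 0.796), and without control replicate 2 it was -0.98.

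A second Nfya entry, NM_001110832, counts only 87 bases, which is the length of a coding exon of 29 codons at chr17:48538307-48538393 that some annotated Nfya transcripts include. It is shown because 1 embryo held nearly all of its reads.
Nfya exon: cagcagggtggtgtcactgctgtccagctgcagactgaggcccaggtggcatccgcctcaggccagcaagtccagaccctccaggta

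This entry was at 499 RPKM in TSA(0-8h)+VC(0-8h) replicate 2, from 569 reads. It had 1 read each in TSA(0-8h) replicate 2 and VC(8-15h) replicate 2, at 1.47 and 1.75 RPKM, and was listed at 0 in the other 11 embryos. The main entry was at 21.0 RPKM in the same embryo, from 996 reads. When the entries of Nfya were summed before the test, the difference of TSA(0-8h)+VC(0-8h) from TSA(0-8h) embryos went from -1.48 to 0.79 on the log2 scale, neither of which passed the threshold.

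Yap1, on the - strand at chr9:7931999-8004596, had the highest and steadiest level. Its values were 84.6, 236 and 372 RPKM in control, 606 in VC(0-8h) and 507 and 394 RPKM in VC(8-15h) embryos. They were 427, 563 and 357 RPKM in TSA(0-8h), 345 and 281 in TSA(0-8h)+VC(0-8h), and 381, 660 and 264 RPKM in TSA(0-8h)+VC(8-15h) embryos. The 3 embryos given VC alone were all above the controls, and control replicate 1 was the lowest of the 14. VC(8-15h) exceeded control embryos by 1.19 on the log2 scale (SE 0.89, limma adjusted p = 0.568), and by 0.59 without control replicate 1. As many as 17.6% of all entries were higher without overlap in that comparison. TSA(0-8h)+VC(0-8h) embryos were both below the TSA(0-8h) embryos, with a fitted difference of -0.50 (SE 0.61, limma adjusted p = 0.765). Lower values without overlap were found for 4.68% of all entries there. Yap1 was higher in embryos with VC by 0.44 (limma adjusted p = 0.799), a value that was -0.27 under median-ratio scaling.

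Tead4, on the - strand at chr6:128174306-128250841, and Tfap2c were near 0 in most embryos. Tead4 was at 53.5 RPKM in TSA(0-8h) replicate 1, 5.34 in TSA(0-8h)+VC(0-8h) replicate 2 and 24.0 in TSA(0-8h)+VC(8-15h) replicate 3, from 476, 206 and 868 reads. The other 11 embryos had at most 0.125 RPKM, and the second entry, NM_011567, was listed at 0 in all 14. Tfap2c was at 12.3 RPKM in TSA(0-8h)+VC(0-8h) replicate 2 and 32.4 in TSA(0-8h)+VC(8-15h) replicate 3, from 457 and 1127 reads, and at 0.0519 or 0 elsewhere. Its second entry, NM_001159696, was at 1.43 RPKM in TSA(0-8h) replicate 1, 1.06 in TSA(0-8h)+VC(8-15h) replicate 3 and 0 elsewhere. The smallest fit to these values is a length of 231 bases with 1 and 3 reads, and a common multiple fits as well. The few embryos in which either gene exceeded 1 RPKM on its main entry had been given TSA, as had 8 of the 14 embryos. A link to TSA was not tested, and the share of all entries with such a pattern was not computed. In each TSA group at least 1 embryo was near 0 for both genes. The 2 embryos with both genes also had the most of the 10 factors at 10 RPKM or more, 8 and 9. These numbers include Tfap2c in both and Tead4 in the latter. Their libraries held 13102176 and 12277567 reads, among the deepest. The deepest, control replicate 3 with 13589389 reads, had 5 factors at that level and neither gene at 1 RPKM. Over the 14 embryos the number of factors had a Spearman rho of 0.34 with reads counted and 0.64 with entries at 1 RPKM. Neither gene entered a comparison.

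No factor passed the threshold in any of the 8 comparisons fitted with limma. In TSA(0-8h)+VC(8-15h) against control, 0 of 5 tested passed (0.0293% of all entries did) and 2 had an unadjusted p under 0.05, Obox3 and Obox5 (18.4% of all entries). For TSA(0-8h) against control, 0 of 6 passed (0.119% of all entries) and 1 had an unadjusted p under 0.05, Obox5 (15.2%). For VC(8-15h) against control, 0 of 4 passed (0% of all entries) and 1 had such a p, Obox5 (14.2%). For TSA(0-8h)+VC(0-8h) against TSA(0-8h), 0 of 6 passed (4.76% of all entries) and 2 had such a p, Obox5 and Obox6 (19.1%). Between TSA(0-8h)+VC(8-15h) and TSA(0-8h), 0 of 5 passed (0% of all entries) and none had such a p (18.6%). Over all 14 embryos, 0 of 7 passed for TSA (0.0377% of all entries, 1 with such a p, Obox3, as had 5.61%) and 0 of 7 for VC (0.0377% of all entries, 0 with such a p, as had 9.79%). The interaction of TSA with VC(8-15h) passed for 0 of 8 factors (0% of all entries, 0 with such a p, as had 4.39%). Limma-voom passed 1 factor, Obox5, in each of the first 2 of these comparisons, where it passed 7% and 4.71% of all entries, and 0 in the other 6. In those 6, in the order above, it passed 2.11%, 3.98%, 6.72%, 0.0188%, 0.0565% and 0.0281% of all entries. The median difference was 1.05 for the 5 factors and 0.78 for all entries in TSA(0-8h)+VC(8-15h) against control, and 0.37 for the 6 factors and -0.38 for all entries in TSA(0-8h) against control. Quantile and median-ratio scaling moved the median of all entries by -0.49 and -0.70 in the first and by 0.27 and 0.39 in the second.

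**Figure D4:**
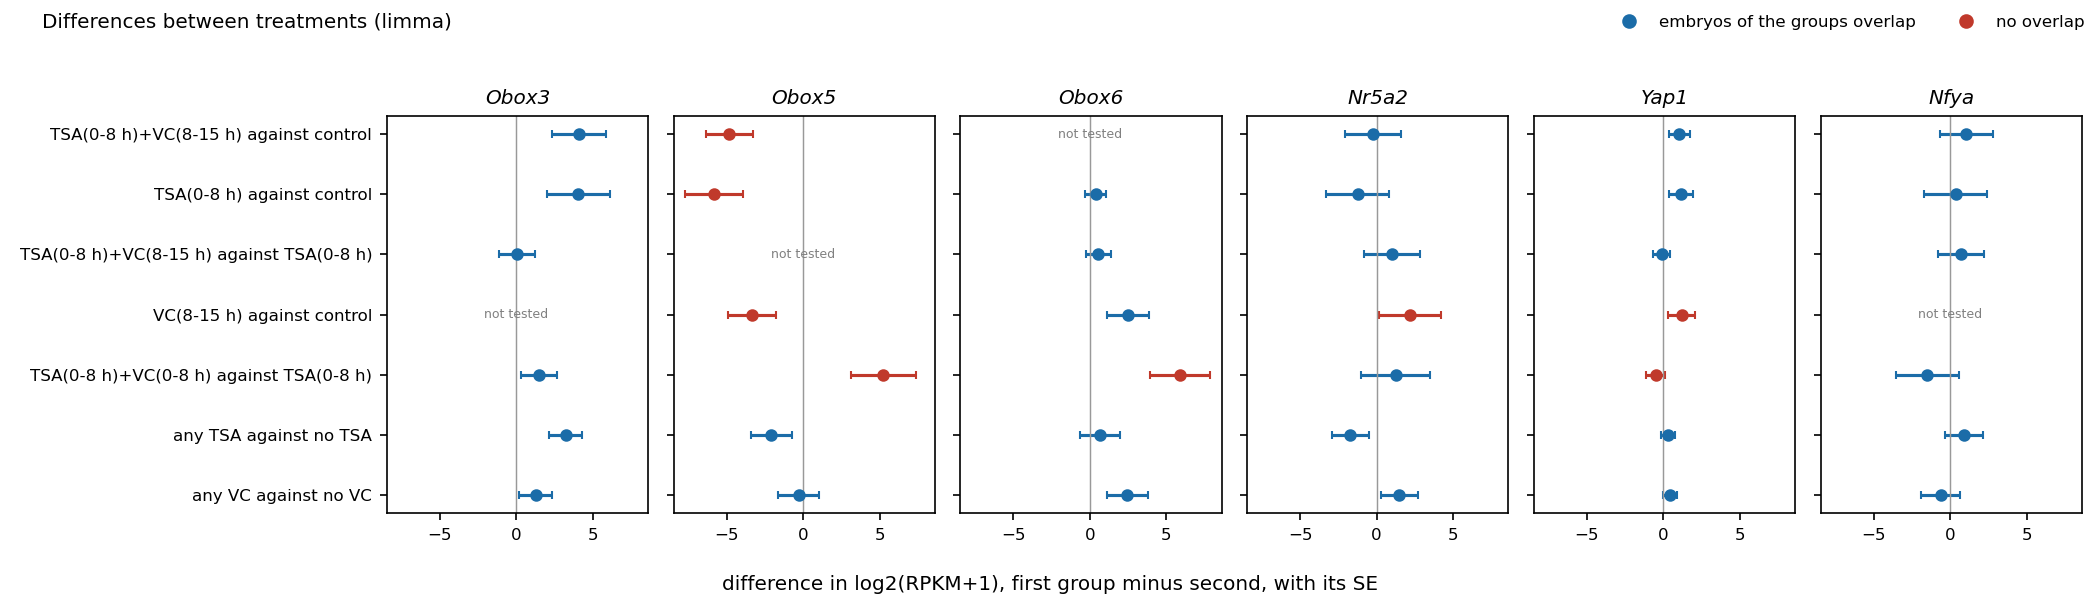
Fitted differences in log2(RPKM+1), first group minus second, with their SE, for the 6 factors that entered most comparisons; red marks groups that did not overlap. Obox5 lay at -4.81 and -5.82 in the top 2 comparisons and Obox6 at 5.88 in TSA(0-8h)+VC(0-8h) against TSA(0-8h), and no point passed the adjusted threshold.

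Genes that work with these factors were read from 5 lists, and none of their members passed the threshold in any of the 8 comparisons. Among 9 OBOX relatives, 6 had an entry. The homeobox genes Sebox and Crxos had the highest medians, at 34.6 RPKM (0.113 to 246) and 9.12 RPKM (0 to 839). Among 4 NF-Y partners, the subunit genes Nfyc and Nfyb were at medians of 8.64 RPKM (0 to 1250) and 2.22 RPKM (0.133 to 305). Of 21 TEAD, Hippo and YAP partners, 6 reached 1 RPKM in at least 7 embryos. The highest were Wwc2, a regulator of the Hippo kinases, at 313 RPKM (50.6 to 618), and Nf2, which activates Hippo signalling, at 89.5 RPKM (1.38 to 213). Of 16 AP-2 and NR5A relatives and co-regulators, Ncoa3, a nuclear receptor co-activator, was at 161 RPKM (70.6 to 226) and Nr6a1, an orphan nuclear receptor, at 87.8 RPKM (14.5 to 351). Among 17 other genome activation factors with an entry, 11 reached 1 RPKM in all 14 embryos, led by the acetyltransferase gene Crebbp at 121 RPKM (12.4 to 183) and Trim28 at 114 RPKM (2.25 to 220).

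Of the 18 other genome activation factors, 16 were tested in TSA(0-8h)+VC(8-15h) against control, and their median difference was 0.70 against 0.78 for all entries. Of 7 TEAD, Hippo and YAP partners tested, 1 was higher and 1 lower at an unadjusted p under 0.05, Mob1a and Sav1, with a median of -0.50, where 14.7% of all entries were higher and 3.72% lower at that level. Of 4 AP-2 and NR5A relatives tested none was, with a median of -0.35. The OBOX relatives and NF-Y partners were not tested in that comparison.

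Genes with the most similar order over the 14 embryos were found by Spearman correlation among 4576 entries, as a description without a test, since the embryos share pools and differ in depth. Closest to Obox3 were Slc1a5, an amino acid transporter gene (rho 0.934), Rpl41 (0.930) and Lysmd1 (0.855). Closest to Obox5 were Cry2, a circadian repressor gene (0.873), Fbxl5 (0.859) and Sub1 (0.859), and to Obox6 Atpif1 (0.865), Utp3 (0.814) and Prdx4 (0.799). Closest to Nr5a2 were Ubn2 (0.925), the homeobox gene Cphx2 (0.886) and Tsn (0.873). Nfya was closest to Tiam1 (0.925), Ankle2 (0.921) and Midn (0.846), and Yap1 to Tnpo3 (0.745), Dock11 (0.740) and Cstf2t (0.705). Obox1, Obox2, Tfap2c and Tead4 were not compared in this way, since they reached 1 RPKM in fewer than 7 embryos.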

How the data were processed

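Per the labels and the methods of the study, single embryos were amplified with the Ovation Single Cell system from part of their RNA, sequenced as single-end reads, and mapped to mm9 with TopHat2. The authors counted reads on exons of RefSeq transcripts and deposited RPKM values. Groups and replicate numbers came from the labels, and the 3 sequencing pools from the library identifiers. The labels do not say which embryos came from the same nuclear transfer experiment, so p-values measure the spread between these embryos. The 10 genes and all lists were chosen with earlier results of these data known.

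Entries that reached 1 RPKM in each embryo of one or the other group were fitted with limma 3.58.1 in R 4.3.3 on log2(RPKM+1), a scale that understates changes of low genes, with Benjamini-Hochberg adjustment over all entries and a threshold of 0.05. Between pairs of treatments, an entry could thus enter only through the group where it was high. For all 14 embryos, the filter was 1 RPKM in 6 embryos, and for the interaction in 3. The study's edgeR test was not run, and the recovered reads described below went into limma-voom only. Named genes of a list were those past the threshold, or otherwise the 2 with the highest median. For each factor at 1 RPKM in at least 7 embryos, the 3 most similar genes were named. Whole reads were recovered from the RPKM steps in 14532 of 14532 entries read in at least 2 embryos (within 0.0001 reads) and used for limma-voom. Reads and lengths are the smallest whole numbers that fit, so a common multiple of both is possible where few embryos had reads. Positions are from GENCODE vM1 on mm9, and promoters from RefSeq on GRCm38.p6. Only the limma fit was tested on simulated data. One result of the lists is not reported here.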

Additional observations from a re-analysis of the deposited data

Results flagged for a closer look

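Values far from the others were looked for in 40 sets of 6 or 8 embryos (with or without TSA, with or without VC) by Dixon's ratio on log2(RPKM+1), which chance exceeds in about 1 of 20 sets, and 6 were found. Obox1 in control replicate 1, at 122 RPKM, stood above the other 5 embryos without VC, of which the next was at 1.21. Obox3 in VC(8-15h) replicate 1, at 0.380 RPKM, stood below the other 7 embryos with VC, of which the next was at 36.4. Nr5a2 in control replicate 2, at 1.24 RPKM, stood below the other 5 embryos without TSA, of which the next was at 43.8. Tead4 in TSA(0-8h) replicate 1, at 53.5 RPKM, stood above the other 5 embryos without VC, of which the next was at 0.125. Tfap2c in control replicate 3 was at 0.0519 RPKM with the others at 0, both in the set without TSA and in the set without VC. With all others at 0, any single value above 0, here 2 reads, exceeds the critical ratio, so these 2 sets carry no information.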

How the results depend on the processing

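With limma-voom on recovered reads, 1 factor passed in place of 0 in TSA(0-8h)+VC(8-15h) against control and 1 in place of 0 in TSA(0-8h) against control, and 1 passed in the latter when entries had to reach 5 RPKM (127 of 1672 entries passed there). It was Obox5 each time. The other 142 of 145 counts of factors under alternatives were unchanged, and 836 of 882 differences kept their direction. Over all entries, limma-voom passed 239 in the first comparison in place of 1 and 119 in the second in place of 3, and also 218 in TSA(0-8h)+VC(8-15h) against TSA(0-8h) and 67 in VC(8-15h) against control, both in place of 0. Leaving out each embryo in turn left Obox5 between -6.47 and -3.52 (adjusted p from 0.104 to 0.240) in the first and between -6.31 and -4.96 (adjusted p from 0.203 to 0.346) in the second. Same-numbered embryos, which shared a sequencing pool in the comparisons checked, did not deviate together (correlations of -0.048 to 0.031). With single embryos as variable as these, that cannot show whether the numbers pair them. With a block for the sequencing pool in the limma fit, the counts of factors were 0 in all 8 comparisons. Obox5 was then at -4.81 (adjusted p = 0.0809) in the first and -5.82 (adjusted p = 0.129) in the second. Over all entries the fit with this block passed 20 in the first, 196 in TSA(0-8h)+VC(8-15h) against TSA(0-8h) in place of 0, and 5 in TSA(0-8h)+VC(0-8h) against TSA(0-8h) in place of 184. After centring within pools, Slc1a5 and Rpl41 remained among the 3 genes most like Obox3, Cry2 for Obox5 and Cphx2 for Nr5a2, and the other places went to other genes, all of them for Obox6, Yap1 and Nfya. After median-ratio scaling, Tfap2c reached 10 RPKM in 1 embryo in place of 2. The groups held 1 to 3 embryos with amplified RNA, which limits every comparison, and a 0 in the shallowest library allows up to 0.993 RPKM for a 1 kb transcript.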
